A study of Rattus norvegicus with 40 samples.

Results

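Rat cerebral cortex kept in normal oxygen was compared here between 2 sets of arrays, Sham 11 to Sham 15 and Sham 6 to Sham 10, 5 arrays a side. These 10 arrays were picked from 40 by their labels, but the comparison was chosen with earlier results of these data known. Every array held total RNA of cerebral cortex on an Affymetrix 1-colour expression array, 20 from rats given hypoxic preconditioning (a mild low-oxygen exposure) and 20 from rats given a sham preconditioning in normal oxygen. Both sham sets carry the same label, sham (normoxic) preconditioning, and differ in the labels only by their numbers. What a number run stands for, such as a time point, a litter or a processing day, is not stated, nor are the strain and age of the rats, the length of the sham exposure or whether each array is a separate animal. The p-values for genes in this comparison therefore rest on the spread among arrays, here all 20 sham arrays, and part of that spread may be technical. The sex transcripts Xist and Eif2s3y marked 2 of the 5 arrays of Sham 6 to 10 and 3 of the 5 of Sham 11 to 15 as male, so neither set came from a single animal.

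The difference between the sets was small in number and led by genes of the endoplasmic reticulum. The endoplasmic reticulum folds the secreted and membrane proteins of a cell, among them receptors, channels and adhesion proteins of neurons. When unfolded proteins build up there, the sensors Ire1, Perk and Atf6 raise the transcription of chaperones, disulfide isomerases and degradation factors, a programme known as the unfolded protein response. Hspa5, also called BiP or Grp78, is its most used marker, and the transcription factors Xbp1 and Atf6 act on many of these genes through an element that the factor NF-Y shares.

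Of 18625 probe sets tested, 67 (0.36%) passed an adjusted p of 0.05, 38 higher and 29 lower in Sham 11 to 15, while 1869 (10.0%) had an unadjusted p under 0.05 (limma over the 20 sham arrays, Benjamini-Hochberg adjustment). With the brightest probe set standing for each of 10304 named genes, 19 genes (0.184%) fell and 23 genes (0.223%) rose. The median difference over all genes was 0.01 on the log2 scale. Of the 19 genes that fell, 9 belong to a list of 25 genes of the unfolded protein and amino acid response, and several others work in the same compartment. Of the 23 that rose, Col1a1 alone belonged to any of the 32 lists examined. Leaving out 1 array moved the count of 67 to between 18, without Sham 13, and 64, without Sham 7. The count was 26 with the GAPDH 3' to 5' ratio as a covariate.

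Hspa5, the main Hsp70 chaperone of the endoplasmic reticulum, had deposited intensities of 3576, 2858, 2583, 3233 and 3723 on Sham 6 to 10 and of 1523, 1528, 1607, 1549 and 1667 on Sham 11 to 15. The lowest of the first set lay well above the highest of the second. Hspa5 fell 2.01-fold, a log2 difference of -1.01 ± 0.10 (SE; 95% interval -1.21 to -0.80; limma adjusted p = 3.0e-06).

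Sdf2l1, a partner of the Hspa5 co-chaperone Dnajb11, read 255, 242, 216, 251.1 and 228 on Sham 6 to 10 and 97.3, 98.2, 89.6, 121 and 112 on Sham 11 to 15. The groups did not overlap, and the fall was 2.31-fold (log2 -1.21 ± 0.10, limma adjusted p = 3.1e-07), the smallest p of all probe sets tested. Creld2, a cysteine-rich protein of the endoplasmic reticulum, gave 299, 457, 337, 370.3 and 291 against 137, 146, 123, 165 and 159 in the same order of arrays. Sham 7 was the highest of the 10, and all of Sham 11 to 15 lay below all of Sham 6 to 10. The fall of Creld2, 2.38-fold (log2 -1.25 ± 0.14, limma adjusted p = 2.6e-05), was the largest among the genes that passed.

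Co-chaperones and folding enzymes moved the same way by less. Dnajc3, which works with Hspa5 and inhibits the kinase Perk, had intensities of 160.4, 119, 128, 133 and 148 on Sham 6 to 10 and 84.0, 81.3, 64.1, 75.8 and 84.3 on Sham 11 to 15, 2 sets without overlap. Its log2 difference was -0.82 ± 0.13 (limma adjusted p = 0.002). Pdia4, a protein disulfide isomerase, read 397, 417, 361, 404 and 344 and then 232, 222, 217, 284 and 238. Sham 14 was the highest of the second set and still below every array of the first, with a log2 difference of -0.69 ± 0.10 (limma adjusted p = 0.0013). A second isomerase, Pdia6, fell by 0.36 ± 0.05 (limma adjusted p = 0.0019), and the Hspa5 co-chaperone Dnajb11 by 0.32 ± 0.07 (limma adjusted p = 0.049), which missed the threshold in 16 of the 22 alternatives tried.

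Manf, a small secreted protein that is held by Hspa5 and supports the survival of neurons, had intensities of 661, 604, 541, 577 and 604 on Sham 6 to 10 against 348, 364, 363, 354 and 440.4 on Sham 11 to 15. Sham 15 stood above the other 4 arrays of its set but below all of Sham 6 to 10. The log2 difference was -0.68 ± 0.08 (limma adjusted p = 3.6e-05). Xbp1, the transcription factor whose messenger RNA the sensor Ire1 splices, read 1172, 1149, 1075, 1131 and 1248 and then 803, 750.2, 804, 795 and 877. Its sets were also apart, by -0.52 ± 0.06 on the log2 scale (limma adjusted p = 2.6e-05), in its total level, since splice forms were not measured separately.

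**Figure D1:**
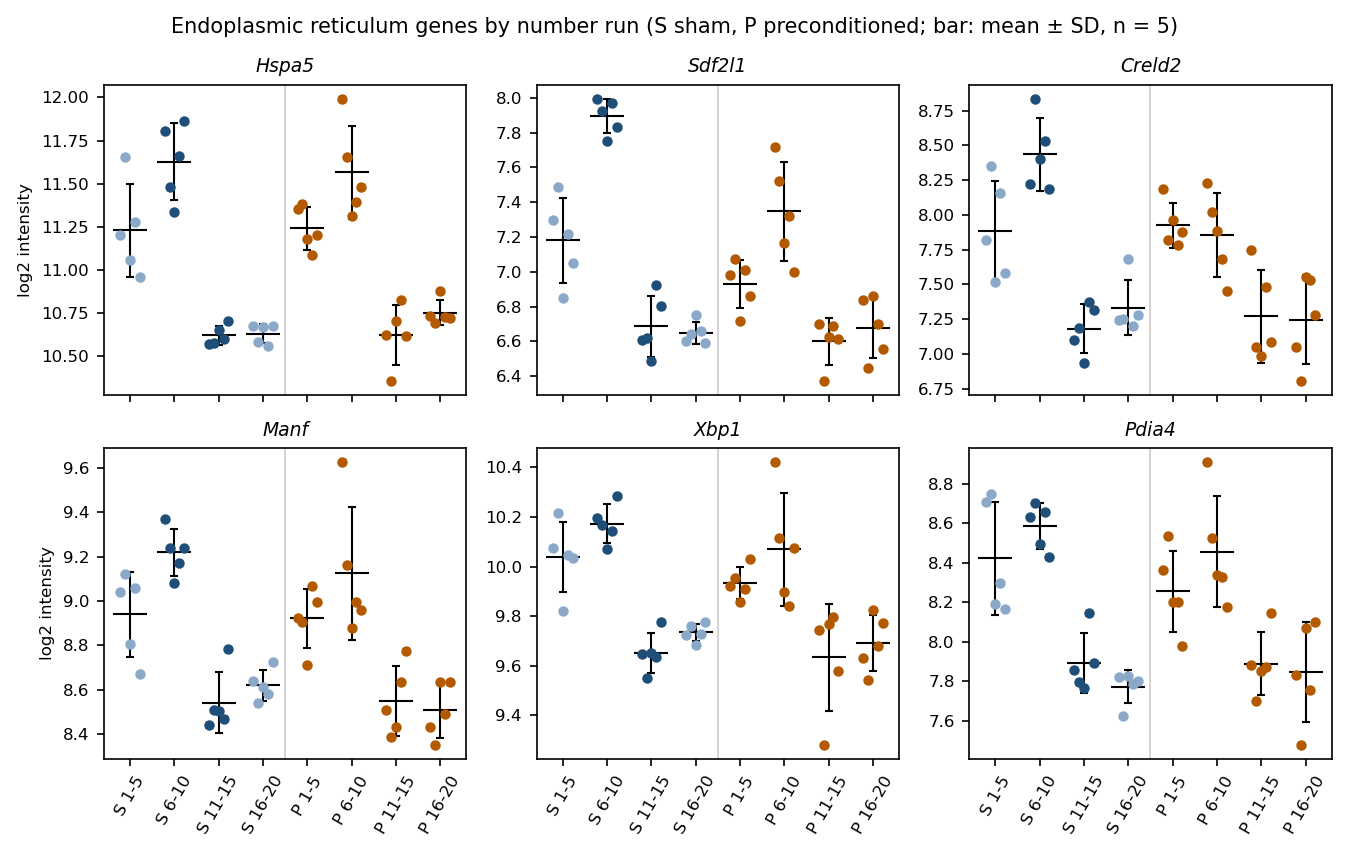
Log2 intensity of 6 endoplasmic reticulum genes on each array, by number run, for the sham (blue; the compared sets darker) and the preconditioned arrays (orange), with the mean and SD of 5 arrays. In each panel all 5 arrays of Sham 11 to 15 lie below all 5 of Sham 6 to 10, and the 2 later runs lie below the 2 earlier ones in their means.

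In the sham arrays the level was highest in run 6 to 10 for all 9 genes of the unfolded protein list that fell, next in run 1 to 5, and lowest in the runs 11 to 15 and 16 to 20. Hspa5 had log2 means of 11.23 ± 0.27, 11.63 ± 0.22, 10.62 ± 0.06 and 10.63 ± 0.06 (SD, n = 5) in the 4 runs in order. Creld2 had 7.88 ± 0.36, 8.44 ± 0.26, 7.18 ± 0.17 and 7.33 ± 0.20. The means of runs 11 to 15 and 16 to 20 lay within 1 SD of each other for both genes. Among all genes that fell, run 6 to 10 had the highest sham mean except for Hecw1, at 8.45 against 8.46 in run 1 to 5.

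Over the whole list the shift was uneven. Its 24 measured members had a median difference of -0.32, against 0.01 over all genes, with 19 below 0, 9 past the threshold downwards and 0 upwards. Arrays of Sham 11 to 15 lay entirely below those of Sham 6 to 10 for 13 of the 24 members, compared with 116 of all genes (1.13%). The 13 include the 9 past the threshold, which were selected on these same arrays, so their separation adds no further support. The list was also chosen with earlier results of these data known. The summed intensity of the list ran from 17118 to 19470 on Sham 6 to 10 and from 14597 to 15333 on Sham 11 to 15. Trib3 had no probe set above the filter on dim probe sets.

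Factors of degradation from the endoplasmic reticulum did not pass. Herpud1 differed by -0.32 ± 0.07 (limma adjusted p = 0.055), the co-chaperone Dnajb9 by -0.35 ± 0.08 (0.064), and Sel1l, an adaptor of the ubiquitin ligase Syvn1, by -0.31 ± 0.10 (0.22). Syvn1 itself stood at -0.14 ± 0.09. Hsp90b1, the Hsp90 of this compartment, was at -0.21 ± 0.06 (limma adjusted p = 0.16), with all 5 arrays lower. The lectin chaperones Calr and Canx, which fold glycoproteins, and their isomerase Pdia3 differed by -0.10 ± 0.07, -0.01 ± 0.05 and 0.03 ± 0.05, and their arrays overlapped.

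Genes of the branch that runs through the kinase Perk and Atf4 were near 0 with 1 exception. Atf4 differed by 0.08 ± 0.05, Atf5 by 0.04 ± 0.13 and Chac1, which degrades glutathione, by 0.07 ± 0.09. The amino acid synthesis genes Asns, Psat1 and Phgdh gave -0.08 ± 0.06, 0.03 ± 0.06 and -0.07 ± 0.10. Ddit3, the transcription factor CHOP, was at -0.57 ± 0.16, with no overlap between the sets, but its limma adjusted p was 0.14.

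**Figure D2:**
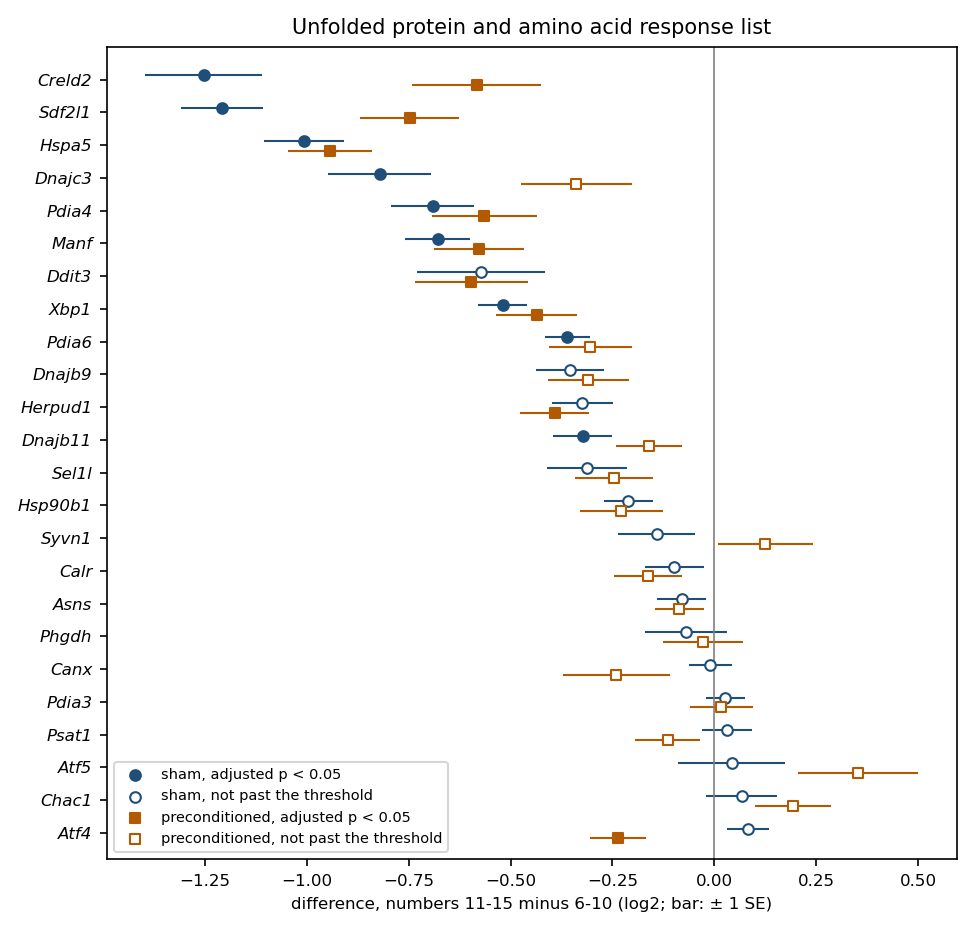
Log2 difference of numbers 11 to 15 minus 6 to 10 for the 24 measured genes of the unfolded protein and amino acid response list, in sham arrays (circles) and preconditioned arrays (squares), with bars of 1 SE and filled symbols where the adjusted p was under 0.05. Creld2, Sdf2l1 and Hspa5 lie at or below -1 in the sham arrays, while Atf4, Asns and the genes beside them lie near 0.

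Outside that list, 10 genes fell, and some belong to the same secretory route. Ero1b, the oxidase that recharges disulfide isomerases, had intensities of 185, 180.3, 157, 172 and 175 on Sham 6 to 10 and 106, 115, 124, 117 and 83.1 on Sham 11 to 15. Its sets did not overlap, and its log2 difference was -0.69 ± 0.13 (limma adjusted p = 0.015). Slc33a1, which carries acetyl-CoA into the endoplasmic reticulum, fell by 0.42 ± 0.08, the only one of the 19 whose arrays overlapped. Ostc, a subunit of the complex that attaches sugar chains to new proteins, fell by 0.37 ± 0.08, and Spcs3, a subunit of the signal peptidase, by 0.28 ± 0.06, both on the log2 scale.

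Nfyb, a subunit of the CCAAT-binding factor NF-Y, read 379.9, 349, 330.3, 362 and 336 on Sham 6 to 10 and 280.5, 254, 258, 252 and 278 on Sham 11 to 15. The sets were apart by -0.41 ± 0.07 (limma adjusted p = 0.0063), while a dimmer probe set of the gene gave -0.10. Cdk2ap2, a protein that binds the kinase Cdk2, fell by 0.59 ± 0.11, and Naa25, a subunit of an N-terminal acetyltransferase, by 0.47 ± 0.10. The smaller falls were those of the ubiquitin ligase Hecw1 (-0.30), the transcriptional coactivator Ccar1 (-0.28) and Gucy1b1, the beta subunit of soluble guanylate cyclase (-0.28), whose other probe set gave 0.06. Of the 19 falls, 7 lay outside the 12 named by size: Ostc, Pdia6, Dnajb11, Hecw1, Spcs3, Ccar1 and Gucy1b1 were chosen after their values were seen.

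The endoplasmic reticulum stress response element, CCAAT, 9 bases and CCACG, was searched on both strands in the RefSeq promoter windows of assembly GRCr8, 250 bases before to 50 bases after each annotated start. It was found in 22 of 33469 windows (0.0657%), of 21 genes. Either of its ends alone was common, CCAAT in 37.5% of the windows and CCACG in 31.6%. Of the genes with the element, 15 were measured, out of 8612 measured genes with a window. All 15 differences were below 0, with a median of -0.21, and 5 of the 15 passed the threshold downwards: Creld2, Hspa5, Dnajc3, Ero1b and Xbp1. None passed it upwards. Over all genes 46.6% of the differences were below 0 and 0.184% passed downwards. Of the 15, 6 lay within 0.05 of 0, among them Canx, Birc5 and Hnrnpa3, so the sign of these 6 carries little. Of the 17 genes that fell and have a window, 5 hold the element, and of the 19 that rose and have one, 0 do. Among the measured genes of the unfolded protein list with a window, 7 of 21 hold it, 4 of them among the 7 fallen genes that have a window. These 7 holders are also among the 15. The element and its spacing were chosen with earlier results of these data known. The counts for the element are therefore not support separate from the list.

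The 250 bases before the start are printed for Hspa5 (chr3:38452766-38453015, plus strand), Xbp1 (chr14:84604373-84604622, plus strand) and Dnajc3 (chr15:102432417-102432666, plus strand), the 3 genes that fell and whose element reads in the direction of the gene. The whole element is in capitals. It ends 25 bases before the start in Hspa5, 47 in Xbp1 and 115 in Dnajc3. Sdf2l1 (chr11:97376628-97376877, plus strand) is shown beside them because it fell by a log2 difference of -1.21 and has no complete element in its window. There the capitals mark each end of the element wherever it occurs alone, CCAAT or its reverse complement ATTGG, and CCACG or its reverse complement CGTGG. All sequences run 5′ to 3′ on the strand of the gene.
Hspa5: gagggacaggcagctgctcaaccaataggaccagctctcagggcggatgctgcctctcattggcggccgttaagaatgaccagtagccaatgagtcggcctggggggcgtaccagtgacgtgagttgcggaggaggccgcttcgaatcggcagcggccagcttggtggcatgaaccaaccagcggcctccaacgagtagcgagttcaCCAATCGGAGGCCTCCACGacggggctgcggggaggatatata
Xbp1: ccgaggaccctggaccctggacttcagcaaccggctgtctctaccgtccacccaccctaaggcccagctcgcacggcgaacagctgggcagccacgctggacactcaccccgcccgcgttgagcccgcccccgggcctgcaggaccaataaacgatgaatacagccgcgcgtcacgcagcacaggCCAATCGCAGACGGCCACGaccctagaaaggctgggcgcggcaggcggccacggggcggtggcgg
Dnajc3: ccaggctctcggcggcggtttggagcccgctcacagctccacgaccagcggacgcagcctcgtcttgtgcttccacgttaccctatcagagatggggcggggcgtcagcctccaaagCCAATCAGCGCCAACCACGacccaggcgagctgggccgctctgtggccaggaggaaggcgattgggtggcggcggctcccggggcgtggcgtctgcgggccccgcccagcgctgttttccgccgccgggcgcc
Sdf2l1: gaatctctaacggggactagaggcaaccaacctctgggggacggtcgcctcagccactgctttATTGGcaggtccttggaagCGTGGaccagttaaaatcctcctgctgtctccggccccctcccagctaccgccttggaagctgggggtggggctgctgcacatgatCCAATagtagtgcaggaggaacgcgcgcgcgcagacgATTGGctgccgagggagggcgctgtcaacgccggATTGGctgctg

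In Creld2 and Ero1b the element lies on the opposite strand, at a start inside the annotated span of each gene, and ends 127 and 206 bases before it. The element alone is given for these genes, read on its own strand with both ends in capitals, next to the one of Hspa5, so that the bases between the ends can be compared.
Creld2: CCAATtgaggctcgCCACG
Ero1b: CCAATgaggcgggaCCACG
Hspa5: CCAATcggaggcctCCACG
The ends are the same by the search, and the 9 bases between them differ from gene to gene. Hsp90b1, which holds 2 copies, and Calr and Canx, with 1 each, did not pass the threshold, so the element was present in members that passed and in members that did not. Manf and Pdia6 had no window in the table.

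**Figure D3:**
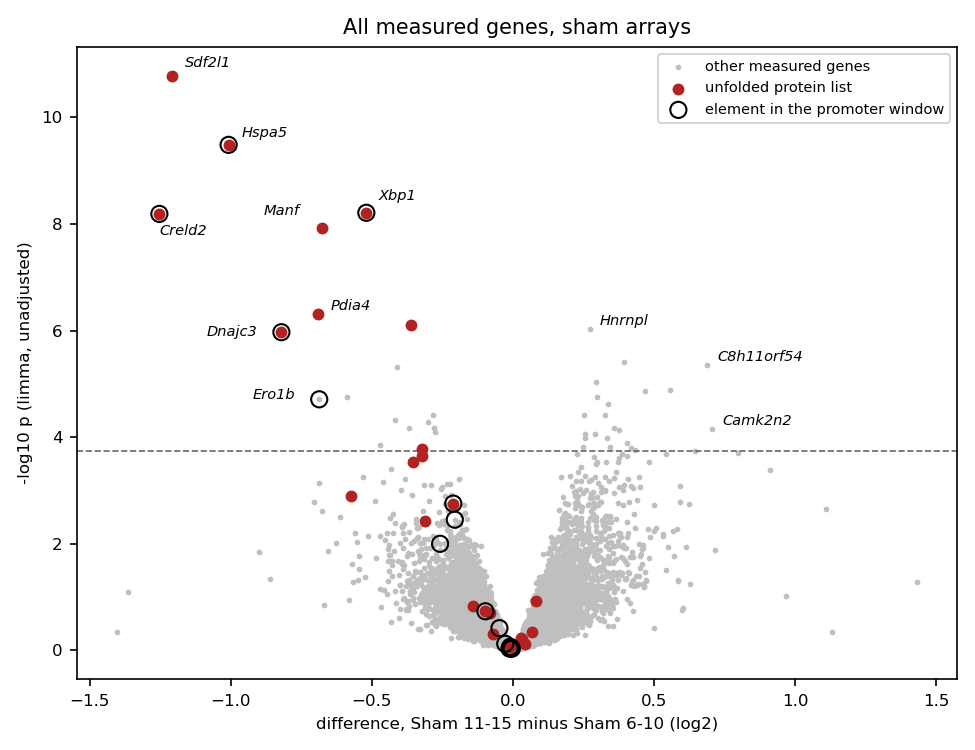
Log2 difference of Sham 11 to 15 minus Sham 6 to 10 (horizontal) against the unadjusted -log10 p of limma (vertical) for all 10304 measured genes, with the unfolded protein list in red, genes with the element in their promoter window circled, and a dashed line at the largest p that passed after adjustment. The red points reach -1.25, while no gene above the line lies beyond 0.71 on the other side.

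The 23 genes that rose were of mixed function, and their log2 differences lay between 0.25 and 0.71. All 5 arrays of Sham 11 to 15 lay above all 5 of Sham 6 to 10 for each of the 23, as they did for 170 genes in all (1.65%). The 23 were selected on these same arrays, so their separation adds no further support. Camk2n2, an inhibitor of the calcium- and calmodulin-dependent kinase II, gave 60.3, 58.7, 38.2, 74.7 and 61.4 on Sham 6 to 10 and 78.7, 99.6, 86.8, 98.1 and 107 on Sham 11 to 15. Sham 8 was lowest, and the sets did not overlap (log2 0.71 ± 0.15, limma adjusted p = 0.032). Dtd2, which removes wrongly attached amino acids from transfer RNA, read 62.0, 48.5, 57.2, 50.02 and 52.0 and then 78.4, 75.5, 70.9, 87.1 and 83.7. It rose 1.47-fold (log2 0.56 ± 0.10, limma adjusted p = 0.013), without overlap.

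Ptms, the acidic nuclear protein parathymosin, had intensities of 779, 741, 757, 822 and 894 on Sham 6 to 10 and 1018, 1046, 1020.5, 1105 and 1043 on Sham 11 to 15. The highest of the first set lay below the lowest of the second (log2 0.39 ± 0.07, limma adjusted p = 0.0062). Hnrnpl, a splicing regulator, gave 1099, 1180.5, 1154, 1137 and 1133 against 1397, 1418, 1383, 1322 and 1364. This was a rise of 1.21-fold (log2 0.27 ± 0.04) with the smallest p among the rising genes (limma adjusted p = 0.0019). Cacnb3, a subunit of voltage-gated calcium channels, read 307, 259, 265, 341 and 301 and then 396, 387, 424, 413 and 406. Its sets did not overlap, with a log2 difference of 0.47 ± 0.09 (limma adjusted p = 0.013).

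**Figure D4:**
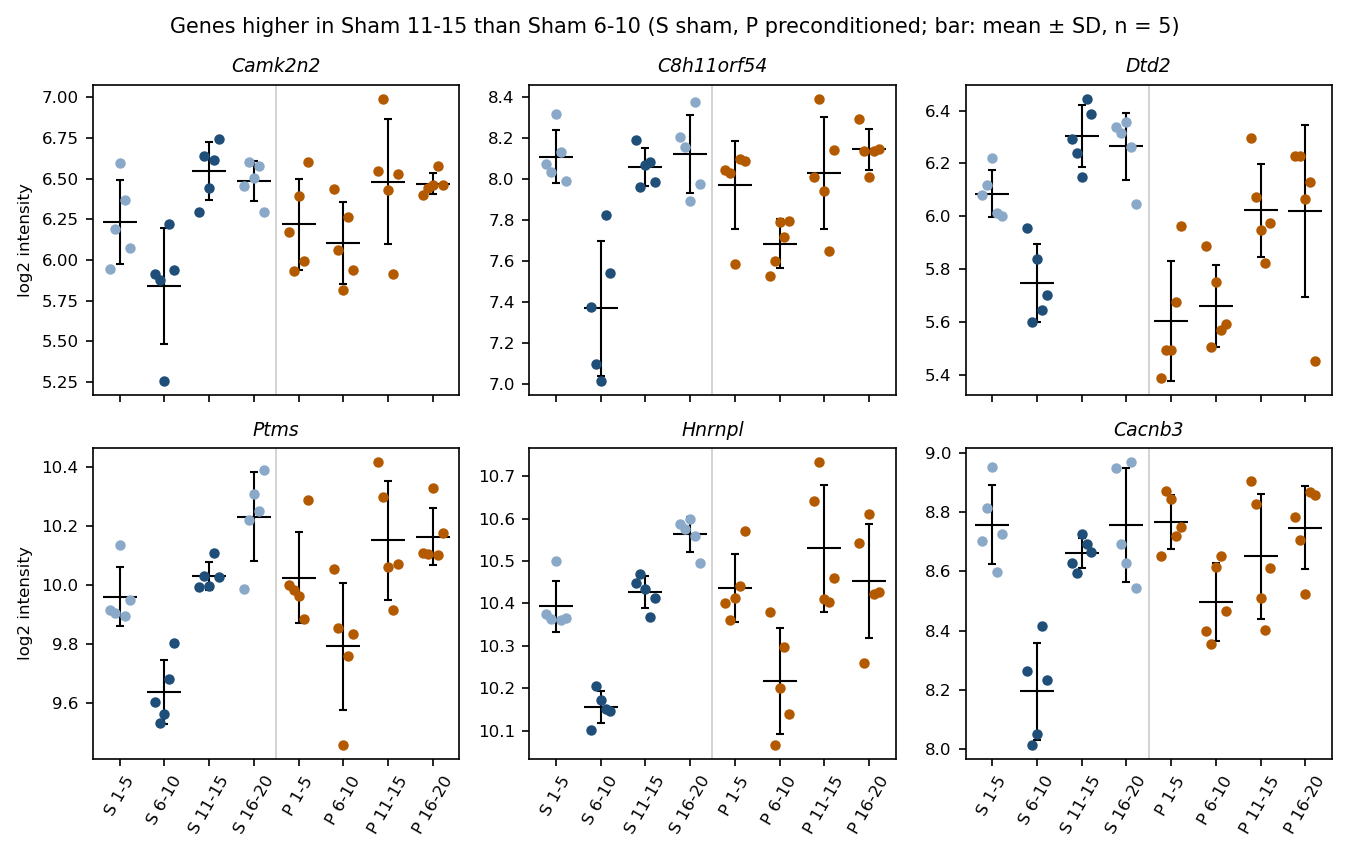
Log2 intensity on each array, by number run, of 6 genes that were higher in Sham 11 to 15 than in Sham 6 to 10 (blue sham, compared sets darker; orange preconditioned; bars show the mean and SD of 5 arrays). In every panel the sham run 6 to 10 has the lowest sham mean. In every panel except that of Camk2n2 all arrays of that run lie below those of the other 3 sham runs. In Camk2n2 they overlap those of sham run 1 to 5. In Ptms the sham run 16 to 20 has the highest mean.

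For all 23 rising genes run 6 to 10 had the lowest mean of the 4 sham runs, by differing amounts. C8h11orf54 had sham log2 means of 8.11 ± 0.13, 7.37 ± 0.33, 8.06 ± 0.09 and 8.12 ± 0.19 (SD, n = 5) in the 4 runs in order, low in run 6 to 10 only. The actin-bundling protein Fscn1 had 8.27 ± 0.21, 7.60 ± 0.29, 8.25 ± 0.10 and 8.23 ± 0.38, with the same low run. Nherf1, a scaffold for membrane transporters, had close means in the first 2 runs, 7.55 ± 0.10 and 7.54 ± 0.13. Its later runs stood at 7.92 ± 0.06 and 8.05 ± 0.17. Those run means are descriptions, and differences with the first and last runs were not tested.

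Several of these rises rest on 1 of several probe sets. C8h11orf54 rose by 0.69 ± 0.12 (limma adjusted p = 0.0063), but its other probe set gave -0.06. Fscn1 rose by 0.65 ± 0.15, with 0.45 and -0.15 on 2 others, and missed the threshold in 17 of the 22 alternatives. Col1a1, the main collagen of meninges and bone, rose by 0.43 ± 0.10 (limma adjusted p = 0.049), with 0.09 on its other probe set, and missed it in 18 of the 22. Of the 42 genes that passed, 13 had further probe sets above the filter, 16 in all, and 13 of the 16 had the same sign while 1 passed the threshold itself. None of the 9 unfolded protein genes had another probe set. A further 10 genes passed only on a probe set that was not their brightest, among them Coro1c at 0.84, Atp1b2 at 0.70 and Celf2 at -0.39.

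Spryd3, the adaptor Gipc1, the corepressor Tle5 and the F-box protein Fbxl19 complete the 12 rises named by size, at 0.42, 0.40, 0.36 and 0.34. The other 11 were chosen after their values were seen: Hnrnpd (0.34), Aplp1 (0.33), Shisa4 (0.33), Ubl5 (0.30), C1qtnf4 (0.29), Arl3 (0.29), Hnrnpl (0.27), Map2k2 (0.25), Pcsk1n (0.25), L1cam (0.25) and Sgta (0.25). Aplp1 is a relative of the amyloid precursor protein, L1cam an adhesion molecule of axons and Map2k2 a kinase of the ERK cascade. The remaining 13 probe sets past the threshold, 8 higher and 5 lower, are unnamed in the annotation, and the largest fall among them was -0.95.

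The preconditioned arrays were compared between the same numbers, and they share no array with the sham comparison. The 2 comparisons may still not be independent. All 20 numbers had the same sex on both sides. Among the numbers of their own run, 17 of the 20 sham arrays deviated most like the preconditioned array of their own number. Preconditioned 11 to 15 minus 6 to 10 called 174 genes lower (1.69%) and 333 higher (3.23%). Of the 19 genes that fell in the sham arrays, 19 were below 0 there and 7 passed the threshold downwards. Of the 23 that rose, 23 were above 0 and 6 passed upwards. Preconditioned 6 had the lowest array median of all, 5.53 on the log2 scale, against 5.76 to 5.78 for the mean medians of the sham sets. Preconditioned 5, outside the runs compared but part of the fit, was next lowest at 5.59. Without preconditioned 6, 18 of the 19 were below 0 with 7 past the threshold, Cdk2ap2 then standing at 0.00. Of the 23, 23 were above 0 with 8 past it. That fit called 160 of all 10304 genes lower and 242 higher. With every array in, 60.05% of the probe sets tested had the same sign in the sham and the preconditioned comparison. Both groups carry the same numbers, so a condition, a litter and a processing batch behind the runs cannot be told apart.

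Hspa5 had intensities of 4076, 3218, 2547, 2686 and 2852 on preconditioned 6 to 10 and 1574, 1309, 1665, 1811 and 1569 on preconditioned 11 to 15. The sets did not overlap, and the difference was -0.94 ± 0.10 on the log2 scale (limma adjusted p = 1.2e-05). Sdf2l1 read 210.3, 184, 144, 160.1 and 128 and then 104, 82.7, 98.5, 103 and 98.0. Here too all of 11 to 15 lay below all of 6 to 10, with a difference of -0.75 ± 0.12 (limma adjusted p = 0.0011). Manf, Pdia4, Xbp1 and Spcs3 also fell there, by 0.58, 0.56, 0.44 and 0.33, as did Creld2, by 0.58 ± 0.16 with overlapping arrays. Dnajc3 (-0.34 ± 0.14), Pdia6 (-0.30 ± 0.10) and Ero1b (-0.54 ± 0.17) missed the threshold. Herpud1 (-0.39 ± 0.08) and Ddit3 (-0.60 ± 0.14) passed it there and not in the sham arrays, as did Atf4 (-0.24 ± 0.07). A test of the preconditioned against the sham difference did not pass for Herpud1, Ddit3 or Atf4 (limma adjusted p = 0.89, 0.99 and 0.076). The list as a whole had 9 of 24 lower, 0 higher and a median of -0.24, against 0.05 over all genes. Without preconditioned 6 it had 7 lower and a median of -0.19, beside 160 lower among all 10304 genes. Hspa5 then fell by 0.84 ± 0.09 (limma adjusted p = 3.6e-06) and Sdf2l1 by 0.65 ± 0.12, while Creld2, at -0.49 ± 0.16, and Atf4, at -0.19 ± 0.07, no longer passed, and Ero1b, at -0.65 ± 0.17, did.

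The difference between the 2 steps was itself tested. It passed for 34 genes (0.33%), none of them among the 42 that passed in the sham arrays. With the sample number as a replicate block it passed for 66 genes, again with 0 of the 42. Without the block, the smallest adjusted p among those 42 were those of Nfyb (0.217), Creld2 (0.246) and Cdk2ap2 (0.253, all limma). This does not show that these steps are alike. Creld2 stepped by -1.25 in sham and -0.58 in preconditioned arrays, and Cdk2ap2 by -0.59 and -0.09. Fos, an immediate early transcription factor, was among the 34: it differed by -0.12 ± 0.22 in the sham arrays and fell by 2.16 ± 0.27 in the preconditioned ones.

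**Figure D5:**
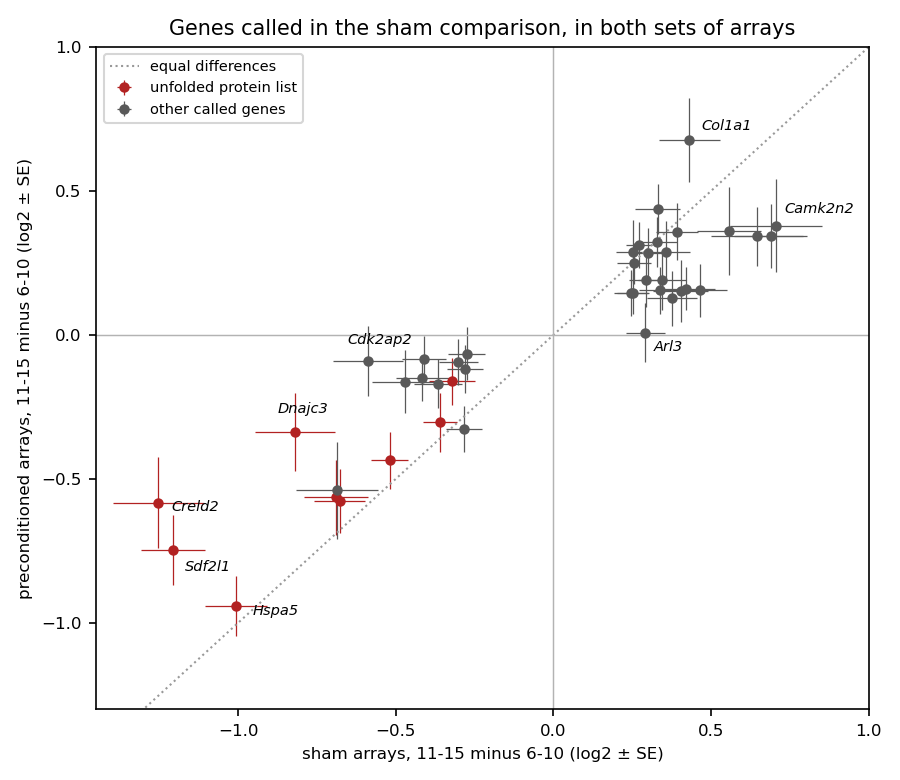
Log2 difference of numbers 11 to 15 minus 6 to 10 in sham (horizontal) and preconditioned arrays (vertical) for the 42 genes that passed in the sham comparison, with bars of 1 SE, the unfolded protein list in red and a dotted line where both are equal. All points lie at the lower left or upper right of the crossing axes, and the falls of Creld2, Dnajc3 and Cdk2ap2 are larger in the sham arrays.

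In 30 of 32 lists no gene passed, the exceptions being the unfolded protein list and a list of meningeal fibroblast markers, through Col1a1 alone. These lists had 4 to 43 measured members, and over all genes 0.184% fell and 0.223% rose, so a count of 0 is near that background and is no result about them. The 19 measured circadian clock genes had 0 past the threshold and a median of 0.04. The clock repressor Per1 differed by 0.60 ± 0.42 (limma adjusted p = 0.69), with intensities of 5.09, 55.0, 6.16, 11.0 and 58.5 on Sham 6 to 10 and 52.4, 53.9, 7.74, 40.5 and 57.7 on Sham 11 to 15. Both sets held arrays below the floor of 16, so Per1 was hardly measured. Cry1, another repressor, was at 0.25 ± 0.09 and the output factor Dbp at 0.23 ± 0.12 (limma adjusted p = 0.33 and 0.51).

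The 20 immediate early genes, the 16 glucocorticoid targets and the 30 genes of the hypoxia-inducible factor and glycolysis list had medians of 0.02, -0.03 and 0.04, with 0 past the threshold in each. Fkbp5, a glucocorticoid target, stood at -0.07 ± 0.11, and the immediate early factor Egr1 at 0.20 ± 0.14. The 20 heat shock chaperones of the cytosol had a median of 0.01 with 0 called, beside the -0.32 of the unfolded protein and amino acid list. The 43 cell cycle genes had a median of 0.05. The 24 genes of immature neurons had one of 0.09, with 8 above 0 at an unadjusted p under 0.05 (limma). Over all genes 10.1% had such a p in either direction, and whether the list differs from them was not tested.

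Of 16 excitatory cortical neuron markers 15 were measured, with a summed intensity of 10795 to 11903 on Sham 6 to 10 and of 10897 to 11747 on Sham 11 to 15. Of the markers of neighbouring tissue, 15 of 17 of striatum, 11 of 15 of thalamus and 19 of 19 of meningeal fibroblasts were measured as well, so these counts do not single out cortex. Gfap of astrocytes differed by -0.01 ± 0.17. The 9 measured markers of choroid plexus and ependyma summed to between 454 and 5820 on Sham 6 to 10 and between 3515 and 6038 on Sham 11 to 15, and the 7 erythroid ones to 5182 to 6667 and 5513 to 7603. Their medians, 0.23 and 0.21, were above those of the other lists, with 0 called in each. The part of such tissue in the results was not tested. Fewer cells of a type and less RNA per cell cannot be told apart in these bulk samples.

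The 2 sets of arrays differed little in brightness: their log2 medians were 5.78 ± 0.02 and 5.76 ± 0.03 (SD, n = 5; exact two-sided permutation p = 0.214, smallest possible p 0.00794). The ratio of 3' to 5' signal, a sign of RNA quality, was 1.66 ± 0.06 and 1.60 ± 0.05 for actin (exact p = 0.111) and 0.924 ± 0.033 and 0.981 ± 0.041 for GAPDH (exact p = 0.0476, 0.190 after adjustment over 4 array properties). With the actin ratio as a covariate 8 unfolded protein genes still passed, and with sex as a covariate 8 as well. With the GAPDH ratio as a covariate, an alternative added after the data were seen, 26 probe sets passed in place of 67 (12 higher, 14 lower), and 27 of the 42 genes, C8h11orf54 among them, no longer did. Of the unfolded protein list 9 genes then passed, 8 of them among the 9 that had passed without it. The part of RNA quality in the rises and falls was not tested beyond these covariates. Pairs of sham arrays correlated at 0.963 to 0.985 over the probe sets tested, and no pair of them shared more than 1 identical intensity.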

How the data were processed

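The deposited values are linear intensity values, 1 per probe set and array, from the authors' series table. The software behind them is not given in the sources used here, but in the deposited values the mean of each array without its lowest and highest 2% lay between 150.04 and 150.06, so the arrays had been scaled. For the analysis, 16 was the floor for intensities, and values were put on the log2 scale. Of 31099 probe sets, 57 controls were left out, and 18625 were kept by a filter on dim probe sets, set on the log2 mean of the 40 arrays at its 40th percentile (intensity 31.9). In the 10 arrays compared, the kept probe sets had 0.110% of values at the floor.

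Names came from the platform annotation, and 14273 kept probe sets had 1 gene, 309 several and 4043 none. RefSeq GRCr8 held the gene ID of 20758 of the 20826 probe sets annotated with 1 gene, and 0 symbols changed. The brightest kept probe set stood for a gene.

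The 20 sham arrays were fitted as 4 run means with limma 3.58.1 in R 4.3.3 (lmFit, eBayes with a mean trend, 16 residual degrees of freedom before moderation), two-sided, with Benjamini-Hochberg adjustment and a threshold of 0.05. The preconditioned step came from the same fit of those arrays, and the difference of steps from a fit of all 40. Simulated data had 200 of 18625 probe sets changed, more than the 67 that passed here. In them the sham fit recovered 69% of log2 changes of 0.5 and 94% of changes of 1, with 3.55% false among its calls. Changes under 0.5, the size of most called rises, were not simulated. The genes named are the 12 largest rises and falls among called genes, up to 4 called members of each list and a few genes chosen whatever their result. The comparison, the lists and the promoter element with its spacing were chosen with earlier results of these data known. Array number limits the precision. Alternatives covered the arrays fitted, normalization, floor, pseudocount, filter, trend, covariates and each array left out.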

Additional observations from a re-analysis of the deposited data

Results flagged for a closer look

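In 6 of 166 sets of 5 arrays examined, 1 array stood apart by a gap of over 0.71 of the range, a share that chance alone gives in about 5% of sets. Manf had an intensity of 440.4 on Sham 15 against at most 364 on the rest of Sham 11 to 15, and without Sham 15 its difference was -0.74 (limma adjusted p = 1.4e-05). Slc33a1 read 339 on Sham 14, with 261 the next highest of its set, and without that array it fell by 0.50 (limma adjusted p = 0.0012). Gucy1b1 was highest on Sham 10 at 1737, next to 1502, and without it stood at -0.23 (limma adjusted p = 0.091). Ccar1 was highest on Sham 9 at 801, next to 740.2, and without it stood at -0.25 (limma adjusted p = 0.087). Manf and Slc33a1 thus passed without their own outlying array, although Slc33a1 did not pass without Sham 6, 11, 12, 13 or 15 (limma adjusted p up to 0.094), and Gucy1b1 and Ccar1 did not pass without theirs or without several other single arrays.

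Among genes that did not pass, Per1 was lowest on Sham 13 at 7.74, below the floor, with 40.5 the next lowest, and without it differed by 0.93 (limma adjusted p = 0.48). Csnk1e, a kinase of the clock, was highest on Sham 11 at 482, next to 434. The step of Fos from numbers 6 to 10 to 11 to 15 differed between sham and preconditioned arrays by 2.04 on the log2 scale (limma adjusted p = 0.0025).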

How the results depend on the processing

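Of the 42 genes that passed, 12 passed in every alternative they were fitted in (22, or 21 for Dtd2, which the stricter filter dropped), 9 that fell (8 of the unfolded protein list, without Dnajb11, and Nfyb) and 3 that rose (Dtd2, Ptms and Hnrnpl). The other 30 missed the threshold in at least 1 alternative, and 0 of the 42 changed sign. The number of unfolded protein genes called lower, counted under each alternative after the data were seen, was 8 to 11. The count of 67 probe sets became 34 without a filter (12 higher, 22 lower), 28 without the mean trend (10 and 18), 41 with sex as a covariate (21 and 20), and 26 with the GAPDH 3' to 5' ratio as one (12 and 14; 19 of the 26 among the 67), an alternative chosen after seeing the data. Without 1 array each it ran from 18 to 64, and it was under 45 without Sham 6 (25), 8 (22), 10 (42), 11 (40), 12 (29), 13 (18), 14 (41) or 15 (32), with the lower calls then in the majority or equal except without Sham 10, 12 and 14. The preconditioned count of 827 (458 higher) became 265 with those 10 arrays alone, 794 with median centring (272 higher), and 454 (without preconditioned 11) to 969 (without preconditioned 13) with 1 array left out. Sham 6 to 10 and Sham 11 to 15 share no numbers, so the sham comparison has no pairs. With the sample number as a replicate block, the count for the difference of steps was 115 probe sets (67 and 48) against 52, or 66 genes against 34, with all 34 among the 66 and 0 of the 42. Sham and preconditioned arrays of 1 number had deviations correlating at 0.031 to 0.39, over 0.1 for 15 of 20 numbers. Among all numbers, 12 of the 20 sham arrays correlated best with their own number. Among the numbers of their own run, 17 of the 20 sham and 19 of the 20 preconditioned arrays did. All 20 numbers had the same sex on both sides, a hint from the data at shared origin that the labels do not state. Fos, not called, ranged from -0.24 to 0.080 without 1 array, reversed without Sham 10. Dim probe sets near the floor, such as Per1, were hardly measured, and 5 arrays a side limit what small changes could pass.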

Other observations

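Lists of the large metabolic and housekeeping groups of the cortex had 0 genes past the threshold between Sham 6 to 10 and Sham 11 to 15, near the 0.184% lower and 0.223% higher of all genes, so the counts are no result about them. The 22 measured genes of cholesterol and fatty acid synthesis had a median difference of 0.07, the 35 of oxidative phosphorylation 0.01, the 27 of the proteasome 0.01 and the 20 cytosolic ribosomal proteins 0.05, all on the log2 scale beside 0.01 over all genes. The 32 genes of synaptic maturation had a median of 0.05 and the 16 neuropeptide genes one of 0.06. Markers of glia were as close to 0, with medians of 0.03 over 20 astrocyte genes and -0.0003 over 18 of oligodendrocytes and myelin. The 16 of microglia and macrophages had one of -0.01, and the 17 of endothelium one of 0.04. The unfolded protein list, at -0.32, had the lowest median of the 32, and the sex transcripts, 4 measured, the next at -0.14.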
